A study of Homo sapiens with 4 samples.

Results

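The 36 genes described here encode enzymes and transporters of glycolysis together with genes that respond to low oxygen. They are a list of gene symbols that was drawn up with earlier results of these data known, so that the list's counts describe these arrays and are no independent evidence, and their probes were found through the RefSeq accession that each probe carries. They are 36 of the 18199 genes that could be named on the arrays. All 36 had a probe, 62 probes in all, and 17 of the genes had more than 1. A probe is a short oligonucleotide printed on the array, and its brightness after hybridisation with dye-labelled RNA is the signal. Of the 62 probes, 53, for 33 genes, were well above background on at least 1 array, and 50 were so on all 4. The 9 that were not on any array were the only probes of CA9, EGLN3 and PFKFB2, 2 of PDK3 and 1 each of SLC2A3, HK1 and NDRG1, and no level is given for those.

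The arrays measured total RNA from Nalm-6 cells, an established human pre-B leukemia line. There were 4 groups, all on the Nalm-6 background. WT was the parental line. Arp5 KO was a line in which both alleles of the gene for actin-related protein 5 had been disrupted by gene targeting, Arp8 KO was a line with a knockout of actin-related protein 8 from earlier work, and the fourth group was labelled as overexpressing Arp8 (Arp8 OE), with no description of its construct in the sources used here. Arp5 and Arp8 belong to the INO80 complex, which slides nucleosomes along DNA with the energy of ATP. The treatment was heme, which induces oxidative stress, at 20 uM for 12 hours. The labels do not give 1 account of it. Titles, treatment protocol and design give heme for all 4 groups. Against this, the treatment field of both knockouts says that none was given, and the sample source says so for the Arp5 line alone. Groups are therefore named by genotype. Whether a knockout differs from WT, from Arp8 OE or from the other knockout through genotype or through heme cannot be told apart. Each group had 1 array, so no difference was set against biological replicates and no test between groups was made. In cultures of whole cells, a change in the make-up of the culture and a change of RNA per cell cannot be told apart either.

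Level here means log2 of the signal over the 75th percentile of its array, so that 0 is the brightness of a probe at that percentile. Where 4 values are listed without names, they stand in the order WT, Arp5 KO, Arp8 KO, Arp8 OE, and 3 differences or folds from WT keep that order. The percentile itself lay between 647.4 and 739.6 units, and between 55.9% and 57.4% of 41000 probes were well above background. ACTR5, the gene for Arp5, had a level of -0.13 in WT and -4.40 in Arp5 KO. ACTR8, the gene for Arp8, differed from WT by -0.53 and -0.68 log2 units on the Arp8 KO array with its pair of probes. Both lay within 2-fold of WT, so these values alone do not show the knockout. In Arp8 OE the differences from WT were 0.02 and -0.01. The array labelled Arp8 OE thus showed no raised ACTR8 signal, and Arp8 OE is used below as the name of that array alone. HMOX1, the heme-induced heme oxygenase, was lower than in WT on all 3 other arrays, with differences of -2.05 in Arp8 OE, -2.98 in Arp5 KO and -2.91 in the Arp8 knockout. Markers of the B lineage were detected on all arrays for 10 of 10 genes, and their levels differed between arrays. In Arp8 OE 12 of their 14 probes were above WT, with a median of 0.22, and 2 were more than 2-fold higher (1 of RAG1, a recombinase subunit, 2.15-fold and DNTT, the terminal transferase, 2.03-fold). Over all probes, 50.03% were above WT there and 2.96% were more than 2-fold higher. In Arp8 KO 9 of the 14 were below WT, beside 47.3% of all probes. Past 2-fold were CD22, a B cell lectin, at -2.58 log2 units, VPREB1, a surrogate light chain component, at -1.26 and DNTT at 1.78. Over all probes 4.35% were more than 2-fold lower and 3.37% higher. In Arp5 KO 8 were above WT, beside 50.7% of all probes, and 0 were past 2-fold, beside 1.69% higher and 2.01% lower. The part of these shifts in the values below was not tested. Of 4 T-lineage genes 0 were detected on all arrays, of 4 myeloid genes 1 was (CD14), and of 3 erythroid genes 1 was (HBA1).

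Glycolysis splits glucose into pyruvate in the cytosol and yields ATP without oxygen. When oxygen is short, the prolyl hydroxylases that mark the HIF alpha subunits for destruction lose activity. HIF then binds a short core sequence, A or G followed by CGTG, near genes for glucose transport, glycolytic enzymes, lactate handling, blood vessel growth and mitochondrial removal. Leukemic cells use glycolysis heavily also when oxygen is plentiful.

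To show the regulatory sequence beside the values, the 250 bases before the start of transcription are printed for the 5 genes with the largest differences in Arp8 OE among those in the RefSeq promoter table of assembly GRCh38.p14. They read 5′ to 3′ on the strand of the gene, and capitals mark ACGTG or GCGTG on either strand, which on the opposite strand read CACGT and CACGC. Where CACGTG occurs it holds the core on both strands, so its overlapping matches count on each. The PFKFB4 window lies at chr3:48556804-48557053 on the minus strand, that of ADM at chr11:10304823-10305072 on the plus strand, that of ALDOC at chr17:28576896-28577145 on the minus strand, that of BNIP3 at chr10:131981924-131982173 on the minus strand and that of PFKFB3, the first of 2 windows listed, at chr10:6144671-6144920 on the plus strand.
PFKFB4: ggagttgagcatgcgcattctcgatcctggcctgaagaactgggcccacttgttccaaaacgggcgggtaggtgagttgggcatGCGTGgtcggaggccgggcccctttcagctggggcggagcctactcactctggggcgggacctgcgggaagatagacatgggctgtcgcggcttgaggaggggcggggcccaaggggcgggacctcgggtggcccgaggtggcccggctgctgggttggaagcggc
ADM: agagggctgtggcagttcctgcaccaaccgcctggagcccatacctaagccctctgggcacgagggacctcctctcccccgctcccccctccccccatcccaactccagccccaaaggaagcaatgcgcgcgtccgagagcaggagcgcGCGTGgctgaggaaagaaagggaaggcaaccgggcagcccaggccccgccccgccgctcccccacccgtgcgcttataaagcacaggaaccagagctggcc
ALDOC: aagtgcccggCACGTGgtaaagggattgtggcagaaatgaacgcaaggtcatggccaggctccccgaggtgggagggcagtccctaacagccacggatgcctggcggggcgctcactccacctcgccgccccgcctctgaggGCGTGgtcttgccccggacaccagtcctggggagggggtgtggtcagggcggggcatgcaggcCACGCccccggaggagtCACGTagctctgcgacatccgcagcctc
BNIP3: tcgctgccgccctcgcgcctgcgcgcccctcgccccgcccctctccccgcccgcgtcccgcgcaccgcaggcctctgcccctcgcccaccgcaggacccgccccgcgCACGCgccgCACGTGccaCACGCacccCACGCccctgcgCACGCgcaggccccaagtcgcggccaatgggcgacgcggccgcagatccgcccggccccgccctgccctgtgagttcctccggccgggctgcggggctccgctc
PFKFB3: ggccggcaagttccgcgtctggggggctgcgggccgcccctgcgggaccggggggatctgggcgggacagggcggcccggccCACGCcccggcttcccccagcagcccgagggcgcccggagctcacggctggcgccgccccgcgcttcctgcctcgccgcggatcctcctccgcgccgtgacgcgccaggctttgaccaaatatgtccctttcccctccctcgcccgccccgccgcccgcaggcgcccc

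PFKFB4 held 1 match, whose first base was at -166 from the start, ADM 1 at -101 and PFKFB3 1 at -168. ALDOC held 5, at -240, -239, -108, -45 and -28, and BNIP3 held 6, all between -143 and -104. Of the 36 genes, 31 had a window in the table, and 20 of them (64.5%) held at least 1 match. This share was 43.2% over all 35116 windows of the table. Those can hold more than 1 per gene and were not limited by kind of gene. The 31 genes were counted by their first window alone, so the shares are not on the same footing. All 7 of the genes with a window and a probe more than 2-fold higher in Arp8 OE than in WT held a match, and 13 of the 24 others did. The others include CA9 and EGLN3, which had no measured difference. They also include LDHA with 5 matches, PGK1 with 3 and GAPDH with 2, whose largest differences from WT in Arp8 OE were 0.19, 0.25 and 0.06. The genes were split by the values themselves, and a link between matches and values was not tested. These letters are a description of the windows and no binding was measured. SLC2A3, PFKFB2, BNIP3L, VEGFA and NDRG1 are not in the table.

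The Arp8 OE array stood apart for these genes. The B-lineage markers were also mostly above WT there, with 12 of 14 probes and a median of 0.22. Against WT, 48 of the 53 probes (90.6%) were higher in Arp8 OE, and 12 probes of 9 genes were more than 2-fold higher. The 9 genes were PFKFB4, ADM, VEGFA, ALDOC, BNIP3, BNIP3L, PFKFB3, ENO2 and HK2. Over all 24177 probes compared, 50.03% were higher in Arp8 OE and 2.96% were more than 2-fold higher, while the share among the 53 was 22.6%. With normexp background correction 8 of the 12 stayed more than 2-fold higher, while the probe of ENO2, 1 of HK2 and 2 of VEGFA were 0.86 to 0.95 log2 units above WT. That of HK2 was at 0.99 with median scaling. The probe of SLC16A3 was the 1 probe more than 2-fold lower, beside 2.15% of all probes. The median difference was 0.39 log2 units over the 53 probes and 0.00 over all probes.

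On both knockout arrays the same probes were spread about WT. In Arp5 KO, 0 of the 53 probes were more than 2-fold higher than in WT and 2 were more than 2-fold lower (SLC16A3 and 1 probe of VEGFA), beside 1.69% and 2.01% of 24285 probes. Their median difference was -0.02. In Arp8 KO, 1 probe was more than 2-fold higher (ALDOC) and the same 2 probes were lower, beside 3.37% and 4.35% of 24578 probes, with a median of -0.06. Above WT lay 24 of the 53 in Arp5 KO and 23 in Arp8 KO, beside 50.7% and 52.7% of all probes. With normexp 0 probes of the list were more than 2-fold lower on either knockout array or in Arp8 OE. The 3 comparisons use the same WT array, so that a WT value that is off moves all 3 together.

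The comparisons that leave WT out gave the following. Against Arp5 KO, 14 of 51 probes, for 8 genes, were more than 2-fold higher in Arp8 OE and 0 were lower, with a median of 0.40, where 3.28% of all probes were higher and 2.08% lower, and 49 of the 51 were above Arp5 KO, beside 49.5%. Against Arp8 KO, 12 of 51 probes, again for 8 genes, were higher and 0 were lower, with a median of 0.55, beside 3.78% and 1.64%. These comparisons in turn share the Arp8 OE array, and genotype and heme cannot be told apart in them either. Between the knockouts, 1 of 51 probes (ADM) was more than 2-fold higher in Arp8 KO than in Arp5 KO and 0 were lower, beside 2.53% and 3.18%, and 35 of the 51 were below Arp5 KO, beside 46.9%. Of the 53 probes, 46 (86.8%) had their highest level in Arp8 OE, where 26.1% of all probes did, and 9 were more than 2-fold above each other array, where 1.38% of all probes were. The lowest level lay in Arp8 KO for 29 of the 53, where 32.0% of all probes had it, and in WT for 17, where 24.2% had it.

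**Figure D1:**
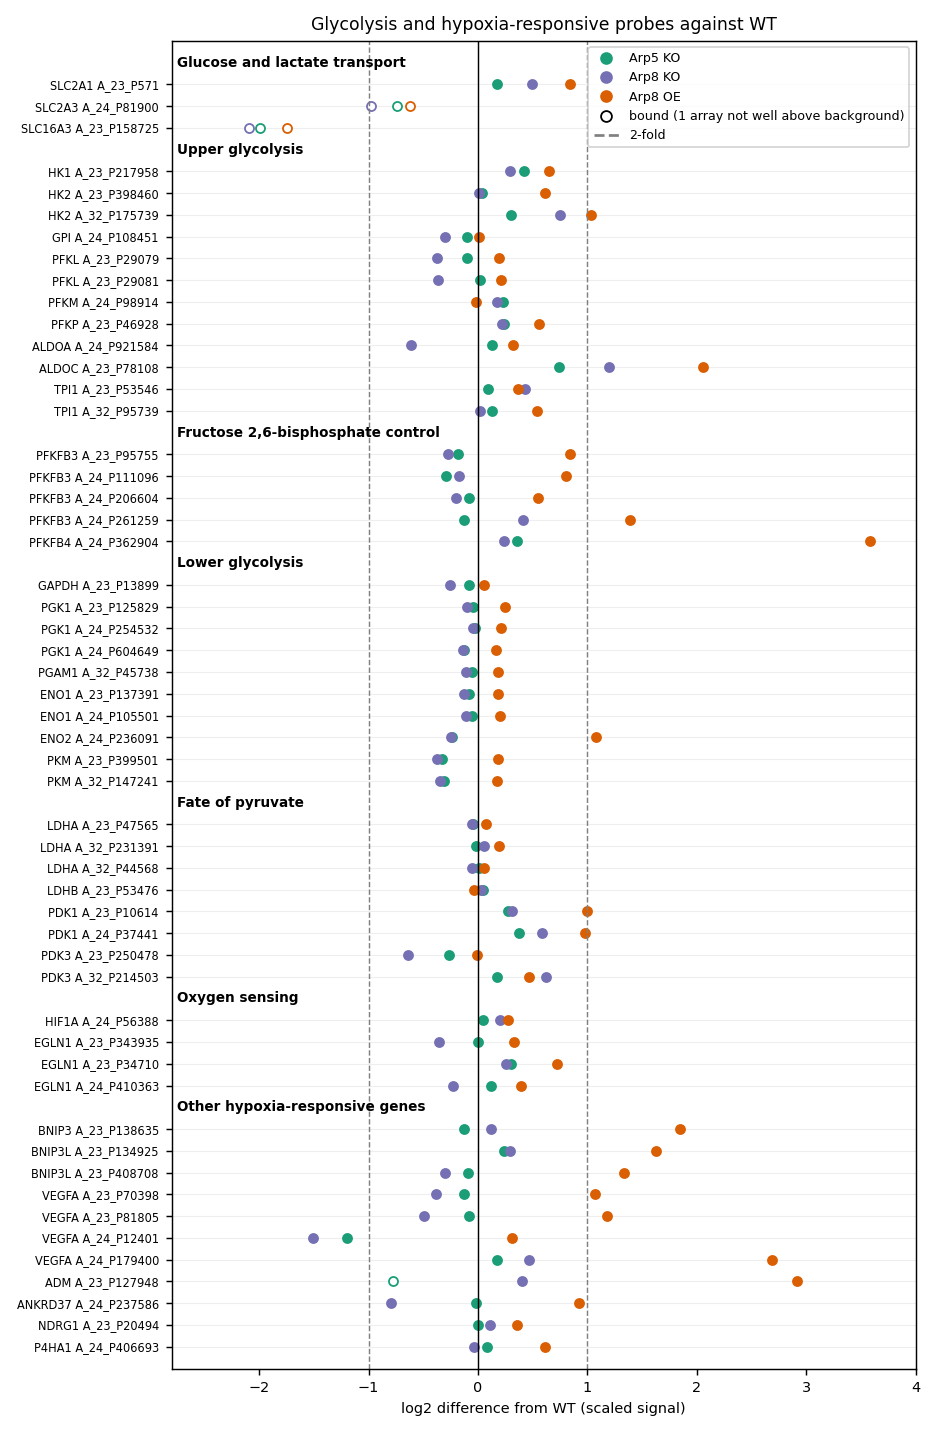
The horizontal axis is the log2 difference from WT and each row is 1 of the 53 probes, grouped by the role of its gene, with 1 point per array. Open points are bounds, where 1 of the arrays compared was not well above background. The Arp8 OE points lie to the right of 0 for 48 of 53 probes and past the 2-fold line on the right for 12, and those of the knockouts lie mostly within 2-fold.

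**Figure D2:**
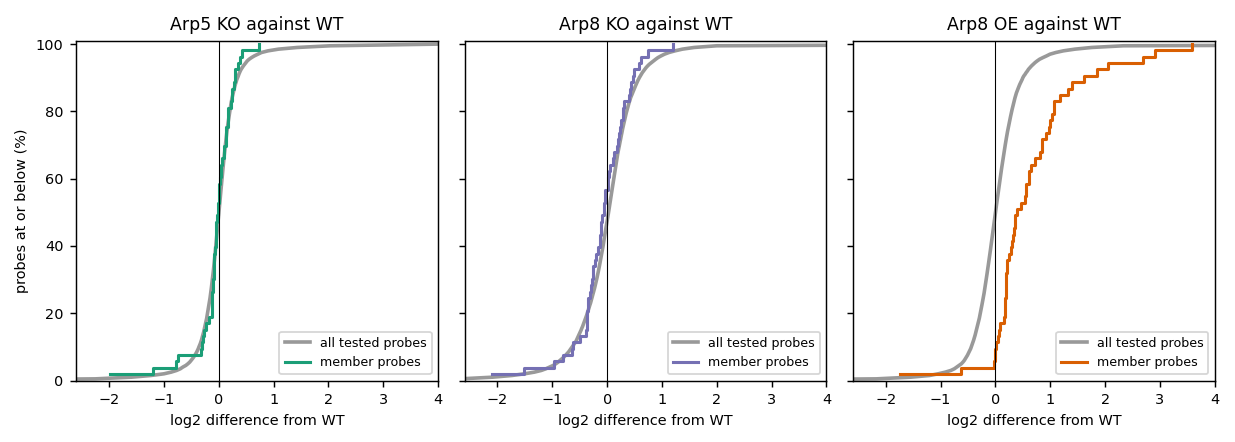
Each panel gives, for 1 array against WT, the share of probes (%) at or below each log2 difference, in grey over all probes compared and in colour over the 53 probes of the list. In both knockouts the coloured line follows the grey one, with medians of -0.02 and -0.06, and in Arp8 OE it lies to the right of it, with a median of 0.39.

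The error of these values is known on the technical side alone. Of 264 probes printed 10 times on each array, 180 to 184 were well above background, and the spread of their spots gives a technical SD of a difference between arrays of 0.08 to 0.09 log2 units for a probe read from 1 spot. For levels below -2 it was 0.15 to 0.17. This covers printing, hybridisation and scanning within an array and not labelling, or the spread between arrays or cultures.

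The control of fructose 2,6-bisphosphate, the most potent activator of phosphofructokinase, held the largest difference from WT of the list. PFKFB4 makes and breaks down this regulator. Its level was -2.67 in WT and 0.91 in Arp8 OE, with -2.31 in Arp5 KO and -2.43 in Arp8 KO. The signals behind it were 115.7, 148.8, 121.4 and 1216 units. WT and the knockouts lay close together and Arp8 OE stood alone. Its difference from WT was 3.58 log2 units, or 11.9-fold, and only 11 of 24177 probes had a higher one. With normexp it was 2.87 log2 units. Arp8 OE was also 3.22 log2 units above Arp5 KO and 3.34 above Arp8 KO, and the knockouts lay 0.35 and 0.23 above WT.

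PFKFB3 encodes the isoform of the same enzyme that favours synthesis. It was read by 4 probes, which shared a direction in Arp8 OE and differed in size. The probe A_24_P261259 had a level of -0.35 in WT and 1.04 in Arp8 OE, with -0.48 in Arp5 KO and 0.06 in Arp8 KO. Arp8 OE was 2.62-fold above WT. The other 3 probes lay below -3 on all arrays and were 0.55, 0.80 and 0.84 above WT in Arp8 OE, within 2-fold. In Arp5 KO all 4 were below WT, by -0.08 to -0.29, although 1 came to 0.01 above it with normexp background correction. In Arp8 KO 3 were below WT, of which 2 turned with normexp, and A_24_P261259 was 0.41 above it. All 5 probes of both genes were thus higher in Arp8 OE than on every other array.

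Of the other hypoxia-responsive genes, 11 of 11 probes were higher in Arp8 OE than in WT, with a median of 1.17, and 7, for 4 genes, were past 2-fold, beside 50.03% and 2.96% of all probes. ADM encodes adrenomedullin, a vasodilator peptide, and is a much used HIF target. Its probe was printed 10 times. Its level was -4.28 ± 0.14 in WT (SD, n = 9 spots), -3.88 ± 0.15 in Arp8 KO (n = 10 spots) and -1.36 ± 0.09 in Arp8 OE (n = 10 spots). In Arp5 KO it was not well above background in any of 10 spots and was set to the dimmest level measured there, -5.06. WT and Arp8 KO were low, Arp5 KO was lower still, and the spots of Arp8 OE did not overlap with those of any other array. Arp8 OE was 7.56-fold above WT, 5.73-fold above Arp8 KO and at least 13.0-fold above Arp5 KO. With normexp the difference from WT was 1.65 log2 units in place of 2.92. Arp5 KO was at least 1.72-fold below WT. Over the alternatives with WT as reference, this difference ran from -2.71 to -0.46 log2 units. Both bounds on Arp5 KO hold for the processed signal alone. Such a bound sets the bright array against the dimmest signal that counts as measured on the dim one.

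BNIP3 and BNIP3L encode related mitochondrial outer membrane proteins that recruit the autophagy machinery. BNIP3 had a level of 2.39 in WT and 4.23 in Arp8 OE, with 2.26 in Arp5 KO and 2.51 in Arp8 KO. Arp8 OE was 3.59-fold above WT, 3.93-fold above Arp5 KO and 3.30-fold above Arp8 KO. The probe A_23_P134925 of BNIP3L had levels of 0.45, 0.69, 0.74 and 2.08, and A_23_P408708 had levels of 0.04, -0.05, -0.26 and 1.37. In each of these 3 probes the knockouts lay within 0.31 log2 units of WT and Arp8 OE stood above them. The probes of BNIP3L were 3.08- and 2.52-fold above WT in Arp8 OE.

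VEGFA, the growth factor of the vascular endothelium, was read by 4 probes that differed in pattern. The probe A_23_P81805, printed 10 times, had a level of -2.56 ± 0.12 in WT and -1.38 ± 0.08 in Arp8 OE, with -2.64 ± 0.13 in Arp5 KO and -3.05 ± 0.09 in Arp8 KO (SD, n = 10 spots each). Arp8 OE was the highest and Arp8 KO the lowest. Spot by spot, Arp8 OE exceeded WT by 1.17 ± 0.09 log2 units and was more than 2-fold above it in 10 of 10 spots, while Arp8 KO was -0.49 ± 0.08 and Arp5 KO -0.08 ± 0.07 from WT. The probe A_23_P70398 gave much the same differences, 1.07 in Arp8 OE, -0.38 in Arp8 KO and -0.13 in Arp5 KO, the last of which turned to 0.01 with normexp.

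The remaining VEGFA probes departed from this. The probe A_24_P12401 had a level of -2.30 in WT and -1.99 in Arp8 OE, with -3.50 in Arp5 KO and -3.81 in Arp8 KO, so that Arp5 KO was 2.30-fold and Arp8 KO 2.85-fold below WT while Arp8 OE lay 0.31 above it. With normexp neither knockout was past 2-fold, at -0.70 and -0.82. The probe A_24_P179400 had levels of -4.46, -4.29, -3.99 and -1.78, and Arp8 OE was 6.43-fold above WT, or 2.68 log2 units, which came to 1.31 with normexp. This last probe had 1 adjacent spot that was bright on the Arp8 OE array alone, and the part of that spot in the value was not tested. All 4 probes had their highest level in Arp8 OE. The files give 1 RefSeq transcript for A_23_P70398 and A_24_P179400 and another for A_23_P81805 and A_24_P12401, so that probes listed under the same transcript differed.

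ANKRD37, an ankyrin repeat protein whose gene is a HIF target, had a level of -0.28 in WT and 0.64 in Arp8 OE, with -0.29 in Arp5 KO and -1.07 in Arp8 KO. Arp8 OE was highest and Arp8 KO lowest, with differences from WT of 0.92 and -0.80, both within 2-fold. From Arp8 KO to Arp8 OE the difference was 1.72, past 2-fold. P4HA1, a collagen prolyl hydroxylase subunit, was 0.61 above WT in Arp8 OE, and NDRG1, a gene induced by hypoxia and stress, was 0.36 above it. CA9, the hypoxia-induced carbonic anhydrase, had no array well above background.

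**Figure D3:**
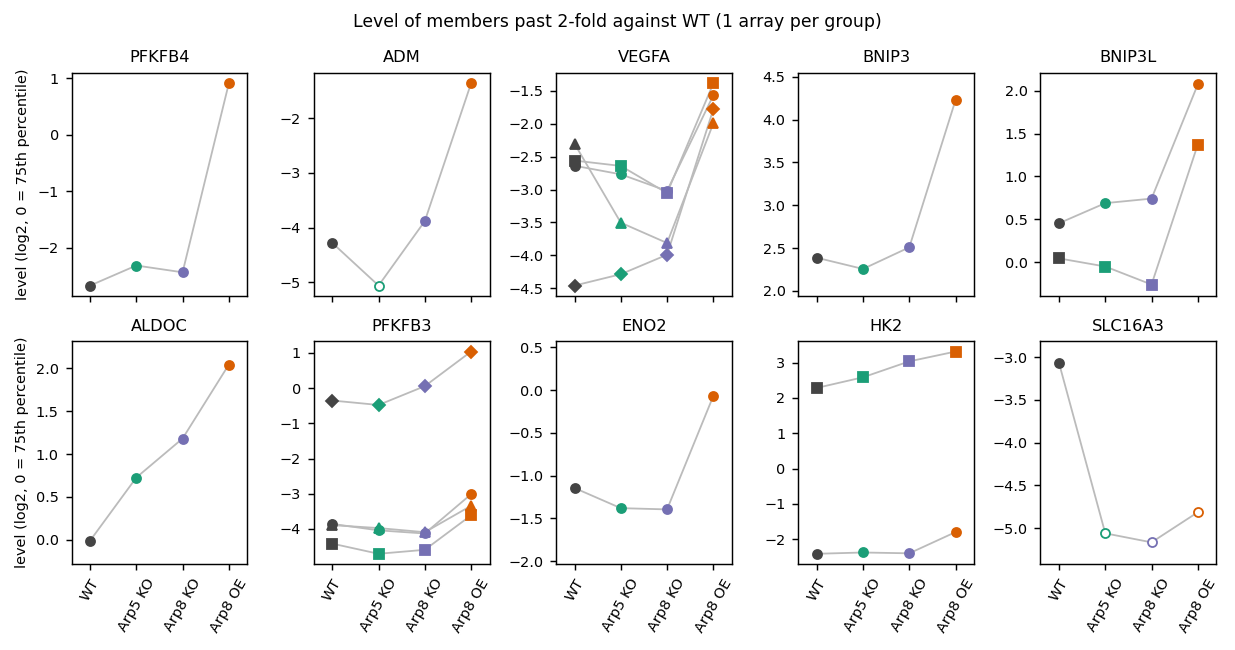
The vertical axis is the level (log2, with 0 at the 75th percentile of the array) and the horizontal axis the 4 arrays, for the 10 genes with a probe past 2-fold from WT on at least 1 array. Each marker shape is 1 probe, open markers are not well above background, and axis ranges differ between panels. Arp8 OE is the highest array in all panels but that of SLC16A3, where WT is.

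**Figure D4:**
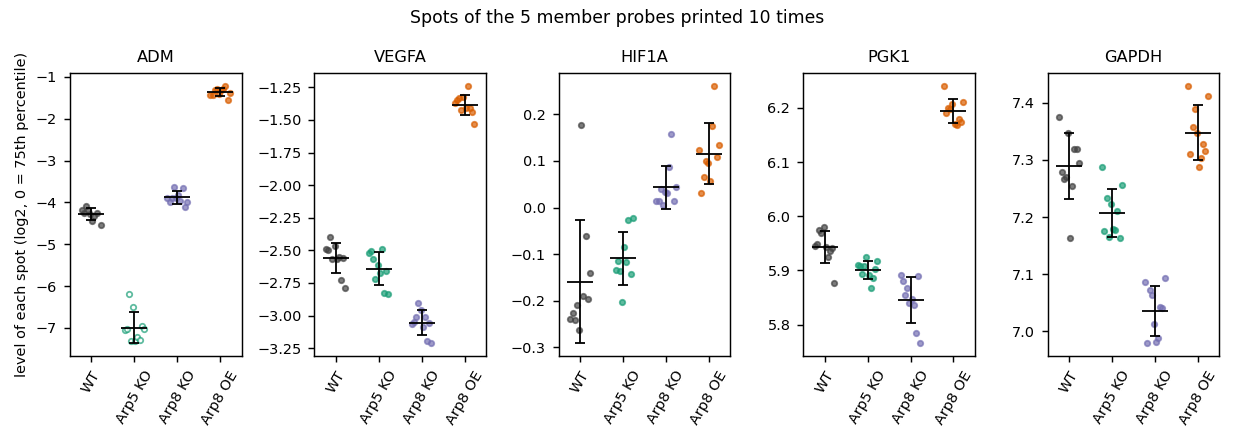
Points are single spots of the 5 probes printed 10 times, by array, with the mean and SD in black, on a log2 scale with 0 at the 75th percentile of the array and with axis ranges that differ between panels. Open points (ADM in Arp5 KO) are not well above background and are drawn at their own value, below the dimmest measured level of -5.06. For ADM and VEGFA the Arp8 OE spots lie clear of all others. The spots of Arp8 OE and WT overlap for GAPDH, and for HIF1A through a WT spot at 0.18 alone.

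The genes of oxygen sensing showed small differences. HIF1A encodes the oxygen-regulated subunit of HIF-1, whose control is mostly at the level of protein stability. Its level, over spots of a probe printed 10 times, was -0.16 ± 0.13 in WT (n = 10), -0.11 ± 0.06 in Arp5 KO (n = 9), 0.04 ± 0.05 in Arp8 KO (n = 10) and 0.12 ± 0.07 in Arp8 OE (n = 10). Arp8 OE and Arp8 KO were higher than WT by 0.27 and 0.20. The spotwise differences of Arp8 OE ran from -0.12 to 0.36. The low end came from a WT spot at a level of 0.18, the other WT spots lying between -0.26 and -0.06. EGLN1 encodes the main prolyl hydroxylase that marks HIF, and is itself a HIF target. Its 3 probes were 0.33, 0.39 and 0.73 above WT in Arp8 OE and -0.35, -0.23 and 0.26 from it in Arp8 KO. EGLN3, a strongly hypoxia-induced relative, was not measured above background.

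In upper glycolysis, from hexokinase to triose phosphate isomerase, 11 of 12 probes were above WT in Arp8 OE, with a median of 0.45, and 2 were past 2-fold, beside the same 50.03% and 2.96% of all probes. With median scaling, quantile normalization or cyclic loess 10 of 12 were above it. ALDOC, the aldolase best known from brain, had a level of -0.01 in WT and 2.05 in Arp8 OE, with 0.73 in Arp5 KO and 1.18 in Arp8 KO. All 3 other arrays were above WT, by 1.67-, 2.29- and 4.17-fold, and it is the only probe of the list more than 2-fold higher in a knockout than in WT. Arp8 OE was 2.50-fold above Arp5 KO and 1.82-fold above Arp8 KO. ALDOA, the aldolase of muscle and most other cells, had levels of 4.62, 4.75, 4.01 and 4.95, and was -0.61 from WT in Arp8 KO and 0.32 in Arp8 OE.

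Hexokinase traps glucose in the cell as its phosphate, and HK2 is the inducible form. The probe A_32_P175739 of HK2 had a level of 2.28 in WT and 3.31 in Arp8 OE, with 2.58 in Arp5 KO and 3.03 in Arp8 KO. The differences from WT were 0.30, 0.75 and 1.03. Its other probe, A_23_P398460, had levels of -2.41, -2.37, -2.40 and -1.80, so that the knockouts were level with WT and Arp8 OE was 0.61 above it. HK1, the constitutive form, had levels of 1.51, 1.93, 1.80 and 2.16 with A_23_P217958, its other probe being not well above background on any array. These 3 measured probes were highest in Arp8 OE, and Arp8 KO lay between WT and Arp8 OE by more than the technical SD with this HK1 probe and 1 of the HK2 probes.

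Glucose phosphate isomerase and the phosphofructokinase subunits differed less. GPI had a level of 5.68 in WT and 5.69 in Arp8 OE, and was -0.30 from WT in Arp8 KO. PFKL, the liver type subunit, was -0.37 from WT in Arp8 KO with both its probes, and 0.19 and 0.21 above WT in Arp8 OE. PFKP, the platelet type, was 0.56 above WT in Arp8 OE, and PFKM, the muscle type, was -0.02 from it. The probes of TPI1, which interconverts the triose phosphates, were 0.54 and 0.36 above WT in Arp8 OE.

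In lower glycolysis, from glyceraldehyde phosphate dehydrogenase to pyruvate kinase, the 10 probes split by array. All 10 were above WT in Arp8 OE, by 0.06 to 1.08, and all 10 were below WT in both knockouts, by -0.33 to -0.03 in Arp5 KO and -0.37 to -0.04 in Arp8 KO. Of all probes, 50.03% were above WT in Arp8 OE, 49.3% below it in Arp5 KO and 47.3% below it in Arp8 KO. Most of these differences were small, several of them within the technical SD of a single spot, and some signs depended on the scaling. With quantile normalization or cyclic loess 9 of 10 were above WT in Arp8 OE, GAPDH having turned, and with median scaling or normexp 9 of 10 were below WT in Arp5 KO, a PGK1 probe having turned. ENO2, the enolase of neurons, was the exception, with a level of -1.14 in WT and -0.07 in Arp8 OE, with -1.38 in Arp5 KO and -1.39 in Arp8 KO. Arp8 OE was 2.11-fold above WT. The probes of ENO1, the general enolase, were 0.18 and 0.20 above WT in Arp8 OE.

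Probes printed 10 times give the spread between spots of an array beside the small differences, not that between arrays or cultures. PGK1, the first ATP-yielding enzyme of the pathway, had a level of 5.94 ± 0.03 in WT and 6.19 ± 0.02 in Arp8 OE, with 5.90 ± 0.02 in Arp5 KO and 5.85 ± 0.04 in Arp8 KO (SD, n = 10 spots each). The spots of Arp8 OE did not overlap with those of the other arrays. Its other probes were 0.21 and 0.16 above WT. GAPDH, often taken as a reference gene, had levels of 7.29 ± 0.06, 7.21 ± 0.04, 7.04 ± 0.04 and 7.35 ± 0.05 (SD, n = 10 spots each). The spots of GAPDH in Arp8 KO lay below those of every other array, with a mean difference from WT of -0.25, while the difference of Arp8 OE from WT, 0.06, turned to -0.07 with quantile normalization and to -0.01 with cyclic loess. PKM, whose enzyme makes pyruvate, was 0.18 above WT in Arp8 OE with both probes, -0.31 and -0.33 in Arp5 KO and -0.34 and -0.37 in Arp8 KO. PGAM1, the mutase before enolase, was 0.18 above WT in Arp8 OE.

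For the fate of pyruvate, the kinases and the dehydrogenases differed. PDK1 encodes a kinase that shuts pyruvate out of the citric acid cycle by inhibiting pyruvate dehydrogenase, and is a HIF target. The probe A_24_P37441 had a level of -0.79 in WT and 0.20 in Arp8 OE, with -0.41 in Arp5 KO and -0.20 in Arp8 KO. The probe A_23_P10614 had levels of -2.84, -2.56, -2.53 and -1.84. WT was lowest and Arp8 OE highest with both, at 0.98 and 0.99 above WT, just under 2-fold. The probes of PDK3, a kinase of the same family, disagreed, at -0.64 and 0.62 from WT in Arp8 KO, -0.27 and 0.17 in Arp5 KO and -0.01 and 0.46 in Arp8 OE.

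Lactate dehydrogenase turns pyruvate into lactate and restores NAD+. LDHA, the HIF-responsive subunit, was 0.05, 0.08 and 0.19 above WT in Arp8 OE with its 3 probes, and LDHB was -0.04 from it. Among their 4 probes the largest difference from WT on any array was 0.19.

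The transporters went in different directions. SLC2A1, the widely expressed glucose transporter GLUT1, had a level of 1.16 in WT and 2.0 in Arp8 OE, with 1.34 in Arp5 KO and 1.66 in Arp8 KO. WT was lowest and Arp8 OE highest, with folds over WT of 1.13, 1.41 and 1.79. SLC16A3 encodes the lactate exporter MCT4. It had a level of -3.07 in WT and was not well above background on the other 3 arrays, from a signal of 87.5 units in WT and of 7.9, 11.2 and 13.6 units on those 3 arrays. Against WT this is at least 3.35-fold lower in Arp8 OE, and at least 3.97- and 4.28-fold lower in the knockouts of Arp5 and Arp8. These bounds hold for the processed signal alone. With normexp the differences were -0.53, -0.71 and -0.58 log2 units in the same order, all within 2-fold. On the WT array 4 spots adjacent to it were also bright on that array alone, and the part of this in its value was not tested. The measured probe of SLC2A3, the neuronal glucose transporter GLUT3, likewise had a level in WT alone, -4.19, with bounds of -0.74, -0.97 and -0.62 on the other arrays.

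A further 51 genes of the same pathways, not among the 36, were set beside them. Probes were found for 49 (not for KDM4B and PPFIA4), and 37 genes, with 52 probes, were well above background on at least 1 array. In Arp8 OE, 34 of 50 probes were above WT, with a median of 0.18, where 50.03% of all probes were. More than 2-fold higher were 6 probes, for 5 genes, and 0 were lower, beside 2.96% and 2.15% of all probes. Of the 6, 4 were well above background on both arrays, and those of BHLHE40 and HIF3A entered the comparison through Arp8 OE alone. DDIT4, an inhibitor of the growth kinase mTORC1, had a level of 2.56 in WT and 4.39 in Arp8 OE, with 2.72 in Arp5 KO and 2.89 in Arp8 KO. Arp8 OE was 3.56-fold above WT. STC2, a secreted glycoprotein, was 1.41 and 1.57 above WT in Arp8 OE with its probes, and MXI1, a MYC antagonist, was 1.13 above it. BHLHE40, a repressor of the circadian clock, was well above background in Arp8 OE alone and at least 3.10-fold above WT. HIF3A, a HIF subunit relative, was at least 2.65-fold above WT with 1 probe, which was not well above background in WT. With the other its difference was -0.00.

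The parts of this further list differed. Among further hypoxia-responsive genes, 25 of 28 probes were above WT in Arp8 OE, with a median of 0.34, and all 3 probes of KDM3A, a histone demethylase, were 0.63 to 0.69 above it. Among other genes of glycolysis and pyruvate use, 5 of 13 were above WT, with a median of -0.12, and among other oxygen sensing and HIF genes 4 of 9 were, with a median of -0.00. EPAS1, which encodes HIF-2 alpha, had, with the probe A_23_P210210, a level of -0.96 in WT and -1.65 in Arp8 OE, with -1.41 in Arp5 KO and -1.47 in Arp8 KO. In Arp5 KO 0 of 48 of these probes were past 2-fold in either direction, beside 1.69% and 2.01% of all probes. In Arp8 KO 2 of 50 were higher, a share near the 3.37% of all probes, and 0 were lower, beside 4.35%. They were 1 probe of TIGAR, a fructose bisphosphatase, at 1.17 with its other probe at 0.42, and RORA, a nuclear receptor, at least 2.61-fold above WT.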

How the data were processed

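Total RNA of the 4 cultures was labelled with Cy3 and hybridised to 1-colour Agilent arrays, 1 per group. The deposited scanner files hold intensity, background-subtracted and detrended per the file headers by the authors with Agilent Feature Extraction 10.10.1.1 (annotation build hg19), not normalized between arrays, and the deposited flags of other kinds (well above background, outlier, saturated) were taken from the same files. The authors' deposited series matrix holds intensity that equalled the processed signal times 1 factor per array (1.99 to 2.29), and was used as an alternative. No spot was saturated. All columns of values were matched to a sample.

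Signals were divided by the 75th percentile of each array, control spots excluded, and taken to log2. Outlier spots (69 to 76 per array) were left out and spots of a probe averaged. A probe counted as well above background where 50% or more of its spots did, and a comparison took the probes for which either array passed. A dim probe took the higher of its own level and the array's lowest level well above background (-5.17 to -4.81), which makes the difference a bound. Probes were kept separate. Of 28354 probes with a RefSeq accession, 27204 matched a symbol in the GRCh38.p14 table. Promoter windows came from RefSeq.

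The members, their roles and the further pathway genes were chosen with earlier results of these data known. Genes with a probe past 2-fold were described in full and all others by value or count. With 1 array per group no test was made: results are differences, folds and counts past 2-fold beside the same over all probes. Array number limits the precision. The alternatives were median scaling, quantile normalization, cyclic loess, normexp with an offset of 50 on the median spot signal, the series matrix, other filters, gene means, a 4-fold threshold, Arp8 OE as reference, and leaving out probes beside spots (within 20 pixels) bright on 1 array alone. Scripts were tested on simulated data. Python 3.11.15 and limma 3.58.1 under R 4.3.3 were used.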

Additional observations from a re-analysis of the deposited data

How the results depend on the processing

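Of 828 recomputed values, 31 over groups of probes and 86 of single probes moved by more than 1.5 times (counts) or by more than the technical SD of 0.08 to 0.09 log2 units (differences). Median scaling and the series matrix moved none by that much. Single probes counted here are those of the 10 genes past 2-fold and of HIF1A, GAPDH, LDHA, PGK1 and SLC2A1. Those of the other listed genes were not counted. With WT as reference, 13 values of single probes, the largest of 0.20 in size, changed sign, and so did the median of the list in Arp5 KO, from -0.02 to 0.01 with median scaling. Over the 53 probes the median in Arp8 OE against WT ran from 0.32 to 0.41 and the share above WT from 86.8% to 90.6%. It was 0.46 and 94.1% over the 51 well above background on both arrays and 0.46 and 91.5% over the 47 not beside a bright spot. Without filter and floor the median of all probes in Arp8 OE was itself 0.11, and that of the 62 listed probes 0.33.

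The numbers lower past 2-fold (the knockouts of Arp5 and Arp8, then Arp8 OE) were 0, 0 and 0 with normexp, 1, 1 and 0 with only probes well above background on both arrays or without probes beside a bright spot, and 4, 4 and 2 with no filter and no floor. With gene means over 33 genes, 1 and 1 were lower in the knockouts, 14 were above 0 in Arp8 KO, 7 were higher past 2-fold and 29 above 0 in Arp8 OE, and 29 were highest in Arp8 OE. At 4-fold, 0 were lower in Arp5 KO, while Arp8 KO had 0 higher and 1 lower, with 4 higher and 0 lower in Arp8 OE, and 3 above each other array in Arp8 OE. These counts follow from fewer genes or a stricter limit. With Arp8 OE as reference, Arp5 KO had 14 lower, a median of -0.40 and 2 above 0, and Arp8 KO had 0 higher, 12 lower, a median of -0.55 and 4 above 0, and ALDOC in Arp8 KO turned from 1.19 to -0.86. The reference array itself changes there, and the shares of all probes past 2-fold for these pairs of arrays are given above. For the other settings of this paragraph no share over all probes was computed. Whether their counts depart from those of all probes was not tested.

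Normexp moved 34 single values. In Arp8 OE against WT it gave 2.87 for PFKFB4, 1.65 for ADM, 1.31 for VEGFA A_24_P179400, and, below 2-fold, 0.95 for HK2 A_32_P175739, 0.87 for ENO2 and 0.86 for VEGFA A_23_P81805 and A_23_P70398. VEGFA A_24_P12401 was then -0.70 in Arp5 KO and -0.82 in the Arp8 knockout, and SLC16A3 -0.71, -0.58 and -0.53. Normexp here added an offset of 50 to every spot, which shrinks folds between dim signals more than between bright ones. The part of the offset in these moves was not tested. Signal over background limits the 9 undetected probes and the 3 with a dim array. No paired analysis was possible because each group has 1 array.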
